A study of Mus musculus with 6 samples.

Results

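The MYC and MAX network comprises the transcription factors that share MAX as an obligate partner, together with the factors that share the related protein MLX. Its 10 genes described here, *Myc*, *Mycn*, *Max*, *Mnt*, *Mxd1*, *Mxd3*, *Mxd4*, *Mxi1*, *Mlx* and *Mga*, were picked by gene symbol and not by a threshold on their values. The choice was made with earlier results of these data known. The genes were taken from the 20856 that carry RPKM values (reads per kilobase of transcript, scaled to the reads counted on genes in each library). All 10 had a row with values. Of these, 9 were among the 11617 genes that reached 1 RPKM in at least 3 of the 6 lines and were tested, and *Mycn* was not.

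RNA-seq was performed on 6 cell lines, each derived from a liver tumor that arose in a C57BL/6 mouse after hydrodynamic injection of a *Myc* transposon and a plasmid (px330) that encodes Cas9 and a guide RNA. The guide targeted *Trp53* in 3 lines (Myc;sgp53/Cas9 in the labels, *Myc*; sg*Trp53* here) and *Kmt2c*, which encodes the histone methyltransferase MLL3, in the other 3 (Myc;sgMll3/Cas9, *Myc*; sg*Kmt2c* here). All 6 lines therefore carry the *Myc* transgene, and a comparison of the genotypes sets *Kmt2c*-targeted cells against *Trp53*-targeted cells, with no line in which both genes were left intact. The lines come from tumors and are not isogenic, and they were grown on collagen until no fibroblasts were seen. The labels name sg*Kmt2c* lines 2 and 3 as 2A and 2T1 without saying how these relate. The authors describe the 3 lines of each genotype as independent and from different mice, but not by these names.

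MYC proteins activate transcription as heterodimers with MAX, which binds the E-box CACGTG. The MXD proteins (MXD1, MXI1, MXD3 and MXD4) and MNT compete with MYC for MAX and recruit the SIN3 corepressor with its histone deacetylases to the same sites. MGA, a very large protein that also has a T-box, pairs with MAX in the Polycomb complex PRC1.6, and MLX pairs with the nutrient-sensing MONDO proteins as well as with some MXD proteins and MNT. In the liver, *MYC* is a recurrently gained oncogene and drives ribosome production, nucleotide synthesis and cell growth, which the MAX partners on the repressing side restrain.

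Recovered totals were 5312182 to 6878625 reads for the sg*Trp53* libraries and 3680068 to 4704539 for the sg*Kmt2c* libraries. *Trp53* was at 17.2, 17.6 and 19.4 RPKM in sg*Trp53* lines 1, 2 and 3 and at 92.2, 124 and 121 RPKM in sg*Kmt2c* lines 1, 2 and 3, a log2 fold change of 2.56 (adjusted p = 0.0140, limma). *Kmt2c* mRNA overlapped between the genotypes (18.4 to 24.2 against 9.51 to 25.0 RPKM), and its level is no check of the edit, which can leave the transcript in place. Of the hepatocyte markers, *Alb* was at 0.644 to 4.36 RPKM in all lines and only *Hnf4a* was high, in sg*Kmt2c* line 1 (1186 RPKM, against 0.629 to 170 RPKM in the other lines). *Hnf4a* is listed with a transcript of 431 bases. A short listed length raises RPKM, so its level beside other genes is uncertain. sg*Kmt2c* line 1 stands apart from the rest, with a summed level of 7 liver progenitor and biliary markers of 6636 RPKM against 67.9 to 1021 RPKM. Most of its sum was the keratins *Krt18* (2065 RPKM), *Krt19* (1866), *Krt8* (1662) and *Krt7* (990). Of the 7 markers, 6 were highest in line 1 among the sg*Kmt2c* lines. *Sox9* was lowest there, at 6.36 RPKM against 7.15 and 11.9 RPKM in sg*Kmt2c* lines 2 and 3. The summed level of 8 fibroblast markers was 15.0 to 986 RPKM in sg*Trp53* and 0.282 to 149 RPKM in sg*Kmt2c* lines, with *Lum* and *Pdgfra* under 1 RPKM in all. The summed level of 7 immune markers was 21.7 to 58.2 against 5.51 to 15.2 RPKM, with *Cd3e* at 0 in all lines and *Ptprc* at or under 0.0655 RPKM, and the 5 endothelial markers summed to 0.360 to 1.27 RPKM. The myeloid markers *Lyz2* (29.0, 17.1 and 45.3 against 0, 0.214 and 12.4 RPKM) and *Csf1r* (10.0, 1.70 and 8.33 against 0.932, 0 and 0.967 RPKM) were each lower in the sg*Kmt2c* lines without overlap. *Cd68*, also on the immune list, overlapped between the genotypes (7.60, 2.60 and 4.01 against 5.35, 5.29 and 1.71 RPKM).

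The largest difference among the network genes was in *Mxd1*, whose level was 4.08-fold higher in the sg*Kmt2c* than in the sg*Trp53* lines, and *Mga* was 1.66-fold lower, each without overlap between the genotypes. Neither reached an adjusted p of 0.05. *Myc*, *Max*, *Mnt*, *Mxi1* and *Mlx* overlapped between the genotypes with small fold changes, and *Mxd3* and *Mxd4* varied more among the lines of a genotype than between the genotypes. In all, 0 of 9 network genes passed an adjusted p of 0.05 (limma, Benjamini-Hochberg over 11617 genes), against 0.129% of all genes tested (0.0516% higher and 0.0775% lower in sg*Kmt2c*). An unadjusted p under 0.05 was reached by 2 of 9, against 8.58% of all genes, with 1 higher (3.25% of all genes) and 1 lower (5.34%). The same 2 of 9 had lines that did not overlap, against 16.2% of all genes, again 1 higher (5.72%) and 1 lower (10.4%). Counts this small are not a result about the network. The log2 fold change was positive for 3 and negative for 6, where 6739 of all 11617 genes tested were negative. The median of the network genes was -0.07, beside -0.09 over all genes tested. The median of the network genes was 0.12 without sg*Kmt2c* line 1 and -0.27 without sg*Kmt2c* line 2. The summed immune markers also did not overlap between the genotypes (at least 21.7 RPKM in sg*Trp53* and at most 15.2 RPKM in sg*Kmt2c* lines), their part in the levels of *Mxd1* and *Mga* was not tested, and with 1 RNA value per line fewer cells that express a gene and less RNA per cell cannot be told apart.

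**Figure D1:**
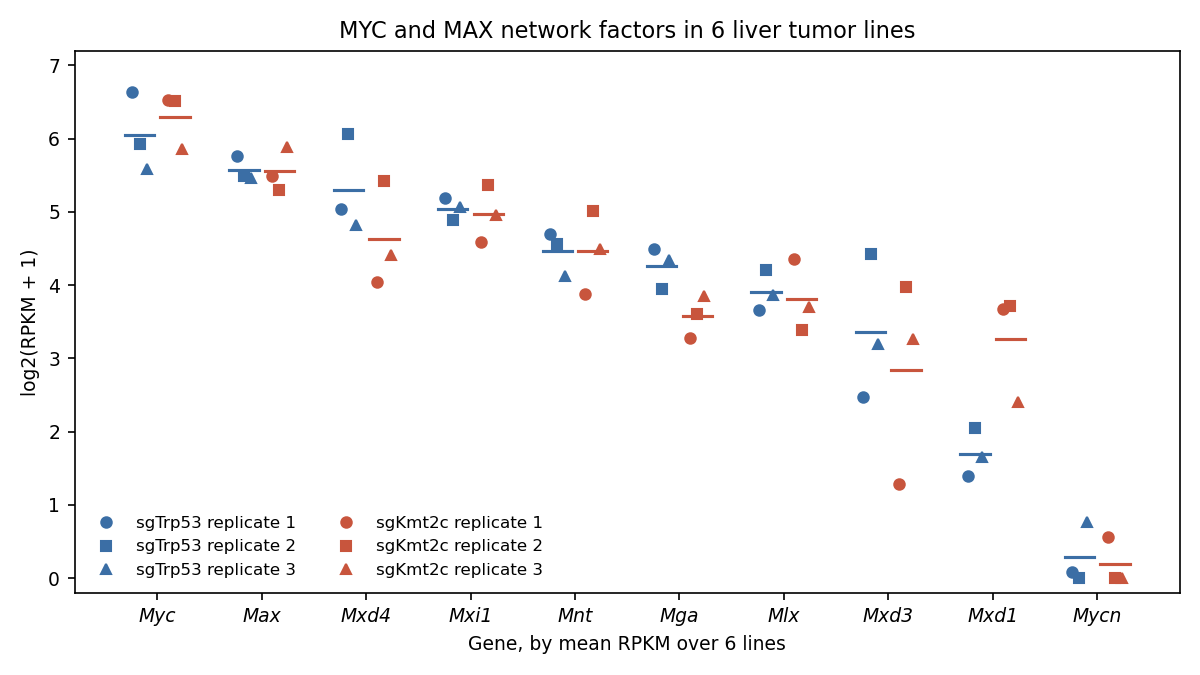
Levels of the 10 network genes as log2(RPKM + 1), ordered by mean RPKM over the 6 lines. Each point is a line, its shape gives the replicate number, and horizontal bars are the means of 3 lines. *Mxd1* is higher in every sg*Kmt2c* line (red) than in any sg*Trp53* line (blue), *Mga* is lower, and the other genes overlap.

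In order of mean level per transcript length over the 6 lines, *Myc* came first at 73.9 RPKM, followed by *Max* (46.8), *Mxd4* (33.8), *Mxi1* (31.7), *Mnt* (21.7), *Mga* (14.8), *Mlx* (13.9), *Mxd3* (9.66), *Mxd1* (5.85) and *Mycn* (0.207 RPKM). Most neighbors in this order overlapped in their ranges, and *Mxd1* and *Mycn* were the only neighboring pair whose ranges were separate. *Mxi1* was nevertheless above *Mnt* within each of 6 lines, and *Myc* above *Max* in 5 of 6.

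*Myc* (chromosome 15, 61985341 to 61990374, GRCm38), the transforming oncogene of this model, was at 98.1, 60.1 and 47.1 RPKM in sg*Trp53* lines 1, 2 and 3 and at 90.9, 90.5 and 57.0 RPKM in sg*Kmt2c* lines 1, 2 and 3. Line 3 was the lowest of each genotype, and the range of the sg*Kmt2c* lines lay within that of the sg*Trp53* lines. Between the genotypes the log2 fold change was 0.25 (95% interval -0.54 to 1.04, adjusted p = 0.816, limma), an interval that spans 0.688-fold to 2.05-fold. Reads from the transposon and from the endogenous gene cannot be told apart in this row, so the level does not say which of them was transcribed. The listed length of 2338 bases may not be that of the transposon transcript, so the place of *Myc* beside other genes is uncertain. Likeness to *Myc* over the 6 lines was taken as the root mean square difference of centered log2(RPKM + 1) values. The 3 closest genes were *Cox14* (0.110), *Senp7* (0.132) and *Dnase1l2* (0.144). The median over all genes tested was 0.556, and these 3 lie below it because they were picked as the smallest. *Dnase1l2* was low, at 0.376 to 1.79 RPKM.

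*Mycn*, the neuronal and embryonic paralog of *Myc*, had 1, 0 and 13 reads in sg*Trp53* lines 1, 2 and 3 and 6, 0 and 0 reads in sg*Kmt2c* lines 1, 2 and 3. Its highest level was 0.706 RPKM, in sg*Trp53* line 3. A count of 0 allows up to 3 reads, which for this gene is 0.211 RPKM in sg*Trp53* line 2 and 0.305 and 0.263 RPKM in sg*Kmt2c* lines 2 and 3. *Mycn* was not tested, and no fold change is given at these counts.

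*Max* (chromosome 12, 76937269 to 76962248), the shared partner, was at 53.5, 43.9 and 43.0 RPKM in sg*Trp53* lines 1, 2 and 3 and at 44.0, 38.3 and 58.1 RPKM in sg*Kmt2c* lines 1, 2 and 3. Its highest line was 1.52 times its lowest, the narrowest range of the tested network genes. Its log2 fold change was -0.014 (95% interval -0.54 to 0.51, adjusted p = 0.987, limma). The spread of *Max* within a genotype, a pooled SD of 0.244 on the log2(RPKM + 1) scale, was wider than that of 24.3% of all genes tested, and the median gene had 0.368.

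*Mxd1* (chromosome 6, 86647044 to 86669159), also known as Mad1, is a repressing MAX partner that is induced when cells stop dividing and differentiate. It was at 1.62, 3.14 and 2.15 RPKM in sg*Trp53* lines 1, 2 and 3 and at 11.7, 12.1 and 4.32 RPKM in sg*Kmt2c* lines 1, 2 and 3. Every sg*Kmt2c* line was above the highest sg*Trp53* line, with sg*Kmt2c* lines 1 and 2 far above it and sg*Kmt2c* line 3 close to it. The means were 2.30 ± 0.775 RPKM (SD, n = 3 lines) and 9.39 ± 4.40 RPKM (SD, n = 3 lines). On the log2(RPKM + 1) scale, which understates the change of low genes, the difference was 1.57 (95% interval 0.55 to 2.58, unadjusted p = 0.00838, adjusted p = 0.407, limma). The exact two-sided permutation p was 0.1, the smallest that 3 against 3 lines can give. Behind these values were 46 to 78 reads in the sg*Trp53* and 86 to 258 reads in the sg*Kmt2c* libraries. Without sg*Kmt2c* line 1, which stands apart in its marker genes, the log2 fold change was 1.36 (adjusted p = 0.471, limma).

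*Mga* (chromosome 2, 119897228 to 119969581) was at 21.5, 14.4 and 19.3 RPKM in sg*Trp53* lines 1, 2 and 3 and at 8.68, 11.2 and 13.4 RPKM in sg*Kmt2c* lines 1, 2 and 3. The sg*Kmt2c* lines were all lower, although sg*Kmt2c* line 3 and sg*Trp53* line 2 lay close together. The means were 18.4 ± 3.60 RPKM (SD, n = 3 lines) and 11.1 ± 2.38 RPKM (SD, n = 3 lines). This was a log2 fold change of -0.68 (95% interval -1.29 to -0.07, unadjusted p = 0.0333, adjusted p = 0.554, limma), and the exact two-sided permutation p was again 0.1. With 490 to 1595 reads per library, *Mga* was among the more deeply counted of the network genes. Without sg*Kmt2c* line 1 its log2 fold change was -0.53 (unadjusted p = 0.0732, adjusted p = 0.586, limma).

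**Figure D2:**
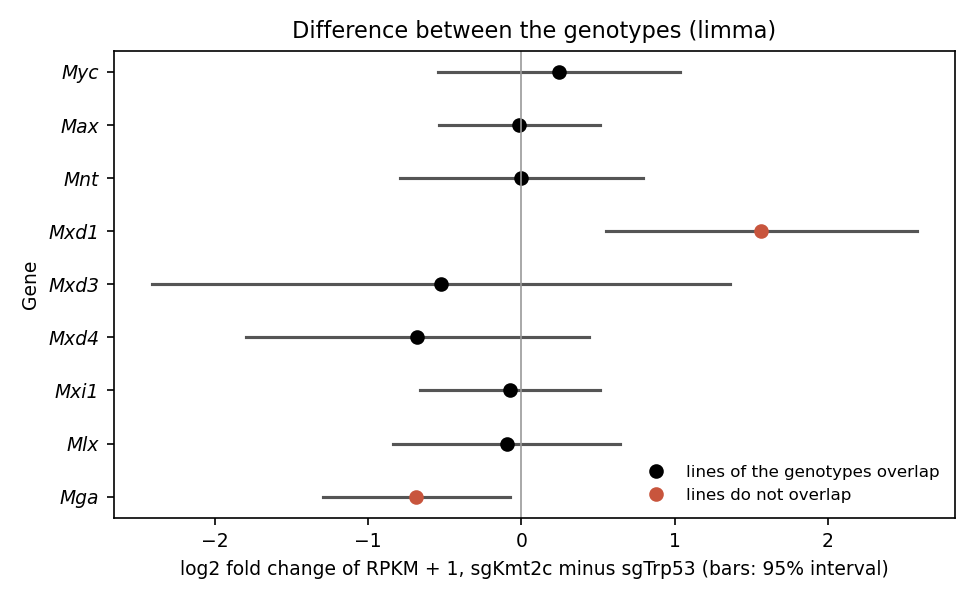
Log2 fold change of RPKM + 1 (sg*Kmt2c* minus sg*Trp53*) of the 9 tested network genes, with 95% intervals from limma (n = 3 lines each). Only the intervals of *Mxd1* (0.55 to 2.58) and *Mga* (-1.29 to -0.07) leave out 0, and that of *Mxd3* is the widest.

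The promoters of the network genes were searched for the E-box that the network itself binds. RefSeq promoter windows of GRCm38.p6 were found for 9 of 10 genes, 11 windows in all because *Mxi1* has 3, and *Myc* had none. In the 250 bases before the start, CACGTG, which reads the same on both strands, was found for *Mnt*, *Mlx* and *Mxd4*, that is in 3 of 11 windows (27.3%), against 6.02% of 32851 windows of the same length over all genes. *Mxd1* and *Mga*, the genes whose lines did not overlap, held none there. A count of 3 of 11 is too small to be a result about the network. CACGTG holds a CpG, and the windows of network genes held 11 to 42 CpG. The median over all windows was 6, and these were not matched for CpG. A match in letters does not show that a factor binds. The stretches around these E-boxes are shown 5′ to 3′ on the strand of the gene, with CACGTG in capitals. They lie at chr11:74830767-74830840 (plus strand) for *Mnt*, chr11:101087216-101087289 (plus strand) for *Mlx* and chr5:34187890-34187960 (minus strand) for *Mxd4*.
Mnt: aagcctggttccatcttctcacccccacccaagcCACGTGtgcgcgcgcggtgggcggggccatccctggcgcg
Mlx: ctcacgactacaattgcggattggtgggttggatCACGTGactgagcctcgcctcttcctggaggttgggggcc
Mxd4: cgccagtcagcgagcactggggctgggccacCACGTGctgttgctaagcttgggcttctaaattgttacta

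The E-box began 123 bases before the start in *Mnt*, 40 bases before it in *Mlx* and 219 bases before it in *Mxd4*. The full 250 bases before the start are shown for *Mxd1* (chr6:86669160-86669409, minus strand) and *Mga* (chr2:119896978-119897227, plus strand). These were the network genes whose lines did not overlap between the genotypes, with adjusted p of 0.407 and 0.554 (limma). Whether their promoter sequences bear on their levels was not tested. Capitals mark the GC box, GGGCGG or CCGCCC on either strand, the sequence bound by SP1 and its relatives.
Mxd1: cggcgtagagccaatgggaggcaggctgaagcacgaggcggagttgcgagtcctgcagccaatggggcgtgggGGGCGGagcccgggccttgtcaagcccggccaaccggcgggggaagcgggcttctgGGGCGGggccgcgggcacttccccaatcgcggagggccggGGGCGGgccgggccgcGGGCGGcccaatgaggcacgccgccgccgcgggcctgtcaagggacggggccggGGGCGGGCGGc
Mga: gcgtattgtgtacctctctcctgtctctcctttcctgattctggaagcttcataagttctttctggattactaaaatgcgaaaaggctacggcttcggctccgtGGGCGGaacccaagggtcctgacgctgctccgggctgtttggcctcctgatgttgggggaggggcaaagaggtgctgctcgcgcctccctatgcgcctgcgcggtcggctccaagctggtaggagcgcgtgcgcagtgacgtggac

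The *Mxd1* window held 6 GC boxes, counting overlapping ones, and 32 CpG dinucleotides, against 1 GC box and 18 CpG in *Mga* and a median of 6 CpG over all windows. GC content was 78.4% in *Mxd1* and 59.2% in *Mga*, where the median window had 52.4%. At least 1 GC box was present in 32.7% of all windows and in 9 of the 11 windows of network genes.

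The other repressing partners of MAX overlapped between the genotypes. *Mnt* (chromosome 11, 74830920 to 74845725), which is expressed in dividing and resting cells alike, was at 24.9, 22.6 and 16.5 RPKM in sg*Trp53* lines 1, 2 and 3 and at 13.8, 31.2 and 21.5 RPKM in sg*Kmt2c* lines 1, 2 and 3. The sg*Kmt2c* lines included both the lowest and the highest value, and the log2 fold change was 0.00024 (95% interval -0.79 to 0.79, adjusted p = 1.00, limma). *Mxi1* (chromosome 19, 53310506 to 53375810), the family member also called MXD2, was at 35.5, 28.6 and 32.4 RPKM against 23.1, 40.1 and 30.2 RPKM in the same order, with a log2 fold change of -0.07 (95% interval -0.66 to 0.51, adjusted p = 0.933, limma). As for *Mnt*, the sg*Kmt2c* lines spanned the sg*Trp53* lines on both sides.

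*Mxd3* and *Mxd4* were marked by their spread. *Mxd3* (chromosome 13, 55325168 to 55329758), a family member expressed in S phase, was at 4.57, 20.4 and 8.20 RPKM in sg*Trp53* lines 1, 2 and 3 and at 1.44, 14.7 and 8.64 RPKM in sg*Kmt2c* lines 1, 2 and 3, a range of 14.2-fold. *Mxd4* (chromosome 5, 34173887 to 34187720) was at 31.8, 65.8 and 27.2 RPKM and at 15.5, 42.0 and 20.4 RPKM, a range of 4.26-fold. For both genes line 2 was the highest of each genotype and sg*Kmt2c* line 1 the lowest of all, and their pooled SD within a genotype (1.21 and 0.69 on the log2(RPKM + 1) scale) was wider than that of 93.2% and 80.7% of all genes tested. The log2 fold change was -0.52 for *Mxd3* (95% interval -2.41 to 1.36, adjusted p = 0.842, limma) and -0.68 for *Mxd4* (95% interval -1.79 to 0.44, adjusted p = 0.710, limma). For *Mxd3* the direction turned to 0.26 without sg*Kmt2c* line 1. *Mxd3* shares 104 bases with *Prelid1*, which reached 215 RPKM, and whether the counting used strand is not given in the sources used here, so reads of this gene are uncertain.

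The lines in which *Mxd3* and *Mxd4* were high also differed in cell type markers. *Krt8*, a keratin of simple epithelia, was at 431, 9.27 and 265 RPKM in sg*Trp53* lines 1, 2 and 3 and at 1662, 140 and 327 RPKM in sg*Kmt2c* lines 1, 2 and 3, so that line 2 was the lowest of each genotype. Its partner *Krt18* was at 342, 14.2 and 223 RPKM and at 2065, 89.3 and 167 RPKM. *Col3a1*, a fibrillar collagen, was at 3.37, 814 and 22.4 RPKM and at 0.0672, 115 and 92.9 RPKM, highest in line 2 of each genotype and lowest in sg*Kmt2c* line 1. These genes were picked after their values were seen, and of the 7 progenitor and biliary markers line 2 was the lowest of its genotype for 7 in sg*Trp53* and 6 in sg*Kmt2c*. Of the 8 fibroblast markers it was the highest for 4 and 6. *Dcn*, a matrix proteoglycan, was at 7.39, 0.897 and 8.16 RPKM in sg*Trp53* lines 1, 2 and 3, with line 2 the lowest. Summed levels of the progenitor and biliary markers, most of which was keratins, were 67.9 and 245 RPKM in the lines numbered 2. Those of the fibroblast markers, most of which was *Col3a1*, were 986 and 149 RPKM. The part of these markers in the levels of *Mxd3* and *Mxd4* was not tested.

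**Figure D3:**
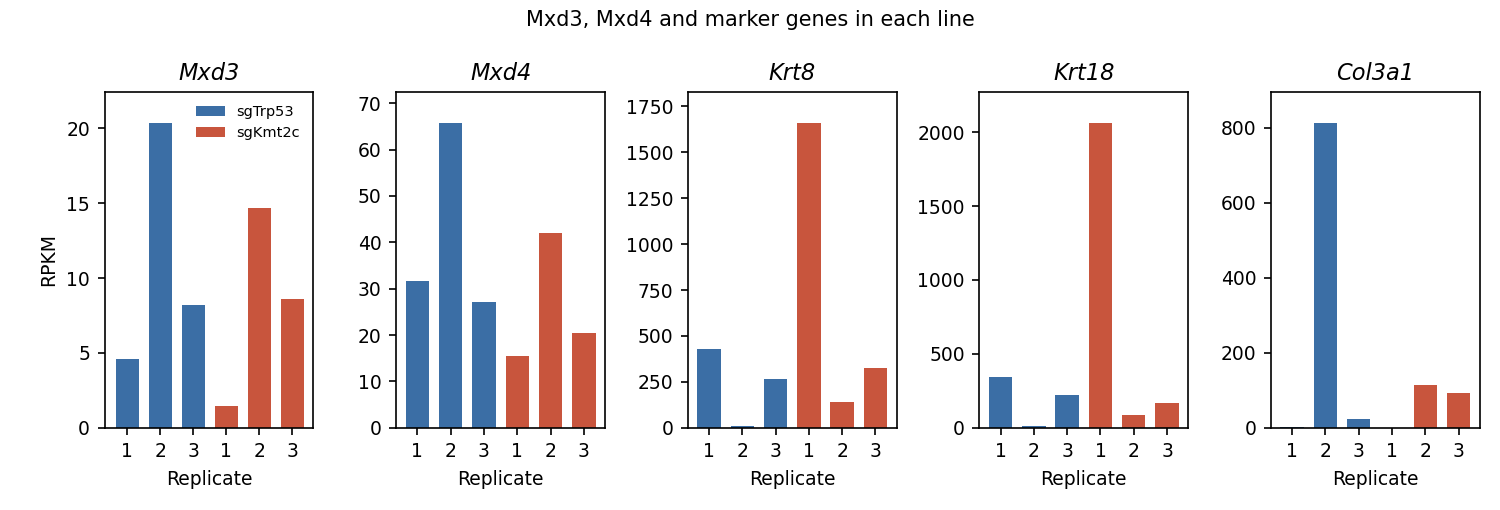
RPKM of *Mxd3*, *Mxd4*, the keratins *Krt8* and *Krt18* and the collagen *Col3a1* in each of the 6 lines (bars, 1 line each; every panel has its own axis starting at 0). In both genotypes line 2 has the highest *Mxd3*, *Mxd4* and *Col3a1* and the lowest *Krt8* and *Krt18*.

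*Mlx* (chromosome 11, 101087277 to 101092207) was at 11.7, 17.5 and 13.5 RPKM in sg*Trp53* lines 1, 2 and 3 and at 19.4, 9.51 and 12.0 RPKM in sg*Kmt2c* lines 1, 2 and 3. The sg*Kmt2c* lines again held both extremes, and the log2 fold change was -0.09 (95% interval -0.84 to 0.65, adjusted p = 0.932, limma). *Mlx* shares 385 bases with *Psmc3ip*, which reached 10.0 RPKM, and is uncertain for the same reason as *Mxd3*. Of 3 further factors of the network, *Mycl*, *Mlxip* and *Mlxipl*, 0 passed an adjusted p of 0.05 (limma). An unadjusted p under 0.05 was reached by 0 and lines did not overlap for 0, against 8.58% and 16.2% of all genes tested. Counts this small are not a result about these factors. Their median log2 fold change was -1.06, and -0.48 without sg*Kmt2c* line 1. *Mlxip*, which encodes the MLX partner MONDOA, was the highest of them at 29.8 to 51.6 RPKM on a listed transcript of 2653 bases, where its longest coding transcript has 7303. *Mlxipl*, which encodes the carbohydrate-responsive factor ChREBP, was at 49.4, 4.44 and 1.83 RPKM in sg*Trp53* lines 1, 2 and 3 and at 0.815, 0.893 and 8.09 RPKM in sg*Kmt2c* lines 1, 2 and 3, so that its level was set apart in 1 line of each genotype.

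Because RPKM is per transcript length, the partners of MAX can be summed within a line, with a limit for *Myc*. Its listed length of 2338 bases is that of the endogenous gene, and the length of the transposon transcript is not given in the sources used here. The shares and ratios that include *Myc* are therefore uncertain. The *Myc* family (*Myc*, *Mycn* and *Mycl*) made up 46.4%, 30.9% and 41.7% of the RPKM of all MAX partners in sg*Trp53* lines 1, 2 and 3 and 55.6%, 40.5% and 38.6% in sg*Kmt2c* lines 1, 2 and 3, the rest being *Mnt*, *Mxd1*, *Mxd3*, *Mxd4*, *Mxi1* and *Mga*. These shares overlapped, at 39.7% ± 7.95 (SD, n = 3) and 44.9% ± 9.31 (SD, n = 3). *Mycl* is listed with a transcript of 386 bases where its longest coding transcript has 3501, which inflates its RPKM. With the longest coding transcripts, the shares were 35.8% ± 8.98 (SD, n = 3) and 43.7% ± 10.4 (SD, n = 3). The ratio of *Myc* to *Max* was 1.83, 1.37 and 1.09 in sg*Trp53* lines 1, 2 and 3 and 2.06, 2.36 and 0.98 in sg*Kmt2c* lines 1, 2 and 3.

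On the repressing side, *Mxd1* took a larger share in each sg*Kmt2c* line without being the main partner. It was 1.35%, 2.03% and 2.03% of the summed RPKM of the 6 repressing partners in sg*Trp53* lines 1, 2 and 3 and 15.8%, 7.99% and 4.39% in sg*Kmt2c* lines 1, 2 and 3. *Mxd4* alone took 25.7% to 42.5% in the sg*Trp53* and 20.7% to 27.8% in the sg*Kmt2c* lines. For *Mga* the shares were 17.9%, 9.31% and 18.3% in the sg*Trp53* lines, against 11.7%, 7.39% and 13.7% for sg*Kmt2c*. Its share overlapped between the genotypes although its level did not.

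**Figure D4:**
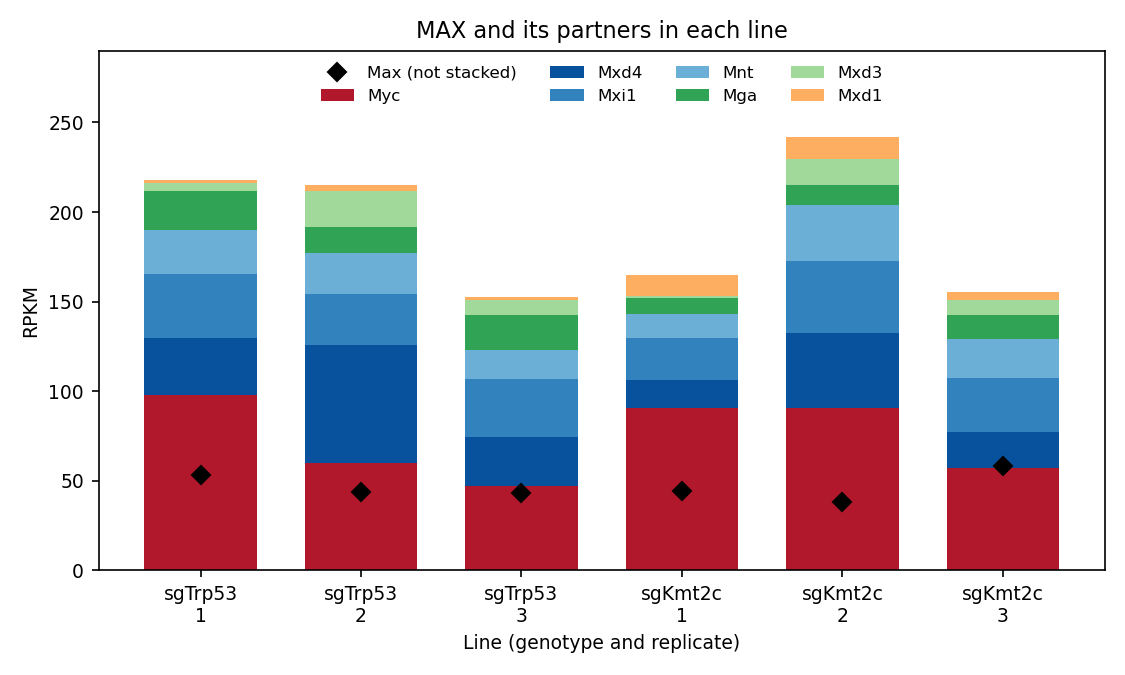
Stacked RPKM of *Myc* and the 6 repressing MAX partners in each of the 6 lines, with the RPKM of *Max* as a black diamond on the same axis (*Mycn* and *Mycl* are left out). *Mxd1*, the top segment, is 11.7, 12.1 and 4.32 RPKM in the sg*Kmt2c* lines and 3.14 RPKM or less in the sg*Trp53* lines.

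Genes that work with the network were described by list. As for *Mycl*, some are listed with a transcript far shorter than the longest coding one, so that their place by RPKM is uncertain: *Trrap* with 960 bases of 12479, *Huwe1* with 1250 of 14579, *Wdr5* with 798 of 2890 and *Acaca* with 889 of 9513. To a lesser degree this also holds for *Ldha*, with 912 of 1766. Of 10 MYC cofactors, 0 passed an adjusted p of 0.05 (limma), 0 had an unadjusted p under 0.05 and 4 had lines that did not overlap, against 8.58% and 16.2% of all genes tested. *Trrap*, the scaffold of MYC-recruited acetyltransferase complexes, was at 358 to 397 RPKM in the sg*Trp53* and 204 to 334 RPKM in the sg*Kmt2c* lines, and *Ep400*, a remodeling ATPase, at 25.8 to 29.4 against 18.2 to 25.3 RPKM. *Wdr5*, which anchors MYC to chromatin and is also a core subunit of MLL complexes, was at 147 to 174 against 116 to 144 RPKM. *Kat5*, the acetyltransferase TIP60, was the 1 of the 4 that was higher, at 15.2 to 18.1 against 18.4 to 19.5 RPKM. *Actl6a* (116 to 132 against 62.6 to 121 RPKM) and *Ruvbl2* (58.6 to 77.8 against 43.7 to 101 RPKM), also among the highest by listed RPKM, overlapped. The log2 fold change was negative for 9 of 10, and for 6739 of all 11617 genes tested. The median of the cofactors was -0.33 (all genes tested, -0.09), and it was -0.18 without sg*Kmt2c* line 1.

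Of 10 genes for the turnover of MYC protein, 0 passed an adjusted p of 0.05 (limma), 2 had an unadjusted p under 0.05 (8.58% of all genes tested) and 5 had lines that did not overlap (16.2% of all genes tested). The ubiquitin ligase subunit *Fbxw7*, which marks phosphorylated MYC for degradation, was at 7.44, 10.5 and 8.05 RPKM in sg*Trp53* lines 1, 2 and 3 and at 6.07, 4.79 and 4.92 RPKM in sg*Kmt2c* lines 1, 2 and 3 (log2 fold change -0.62, adjusted p = 0.567, limma). *Skp2*, a subunit that both degrades and co-activates MYC, was at 29.9, 24.1 and 26.0 RPKM against 7.01, 11.5 and 21.2 RPKM (log2 fold change -1.08, adjusted p = 0.528, limma). *Trpc4ap* was also lower without overlap, at 57.3 to 83.4 against 50.8 to 55.8 RPKM, and *Stub1*, a chaperone-linked ligase, was higher at 28.4 to 38.9 against 25.2 to 28.2 RPKM. *Huwe1*, with the highest listed RPKM, was at 558 to 917 and 798 to 834 RPKM, and *Aurka* (49.4 to 80.3 against 36.1 to 59.9 RPKM) overlapped as well. The median log2 fold change was -0.36.

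Of 9 genes of the SIN3 corepressor, through which MXD proteins and MNT repress, 0 passed (limma), 1 had an unadjusted p under 0.05 (8.58% of all genes tested) and 3 had lines that did not overlap, all lower in the sg*Kmt2c* lines (10.4% of all genes tested). The histone deacetylase *Hdac1* was at 55.9, 89.1 and 59.0 RPKM in sg*Trp53* lines 1, 2 and 3 and at 25.8, 48.6 and 52.2 RPKM in sg*Kmt2c* lines 1, 2 and 3. *Sap18* was at 24.3 to 37.2 against 14.9 to 22.7 RPKM and the histone chaperone *Rbbp4* at 75.1 to 95.5 against 25.8 to 68.9 RPKM. *Rbbp7* (105 to 160 against 132 to 166 RPKM) and *Hdac2* (64.2 to 76.0 against 66.4 to 102 RPKM), their close relatives, overlapped. The median log2 fold change was -0.19, and -0.12 without sg*Kmt2c* line 1.

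Of 12 genes of PRC1.6, the Polycomb complex that MGA anchors, 0 passed (limma), 1 had an unadjusted p under 0.05 and 3 had lines that did not overlap (8.58% and 16.2% of all genes tested), of which *Wdr5* and *Hdac1* are shared with the lists above. The third, the ubiquitin ligase subunit *Ring1*, was at 7.01, 5.54 and 6.64 RPKM in sg*Trp53* lines 1, 2 and 3 and at 9.81, 14.3 and 9.09 RPKM in sg*Kmt2c* lines 1, 2 and 3 (log2 fold change 0.69, adjusted p = 0.551, limma). Its paralog *Rnf2*, at 57.8 to 105 RPKM, and the abundant subunits *Tfdp1* (56.4 to 187 RPKM) and *Cbx3* (56.4 to 115 RPKM) overlapped. The median log2 fold change was -0.06, and 0.12 without sg*Kmt2c* line 1. Of 11 germline genes that this complex is known to silence, 7 had a row with values and 1, *Stag3*, was tested. It was at 3.48, 0 and 0.881 RPKM against 1.93, 0 and 5.44 RPKM, *Dazl* and *Slc25a31* were at 0 in all lines, and *Ddx4* did not exceed 0.863 RPKM.

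Of 26 genes that MYC is known to activate, 0 passed an adjusted p of 0.05 (limma), 0 had an unadjusted p under 0.05, and 1 had lines that did not overlap, against 8.58% and 16.2% of all genes tested. This was *Prdx3*, a mitochondrial peroxidase, at 78.5, 56.0 and 73.5 RPKM in sg*Trp53* lines 1, 2 and 3 and 80.4, 97.6 and 109 RPKM in sg*Kmt2c* lines 1, 2 and 3. The highest of the list by listed RPKM were *Ldha*, the lactate dehydrogenase of glycolysis (1342 to 2759.8 RPKM), the nucleolar *Npm1* (700 to 1266 RPKM), the mitochondrial chaperone *Hspd1* (238 to 561 RPKM) and *Ncl* (158 to 328 RPKM), all overlapping. The place of *Ldha* ahead of *Npm1* is uncertain because of its short listed transcript. The log2 fold change was negative for 21 of 26, and for 6739 of all 11617 genes tested. The median of the targets was -0.15 (all genes tested, -0.09), and it turned to 0.08 without sg*Kmt2c* line 1.

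The targets differed more among the sg*Kmt2c* lines than between the genotypes. sg*Kmt2c* line 1 had the lowest value of all 6 lines for 20 of 26 targets (76.9%), against 35.9% of all genes tested, and sg*Kmt2c* line 3 had the highest for 15 of 26 (57.7%), against 14.7%. Centered on the mean of each gene, the median target lay at -0.59 in sg*Kmt2c* line 1, -0.05 in sg*Kmt2c* line 2 and 0.40 in sg*Kmt2c* line 3 on the log2(RPKM + 1) scale, and between -0.10 and 0.19 in the sg*Trp53* lines. In sg*Kmt2c* lines 1, 2 and 3 *Myc* was at 90.9, 90.5 and 57.0 RPKM and *Mxd1* at 11.7, 12.1 and 4.32 RPKM, with lines 1 and 2 close together for both. Other network genes differed between these lines. Of the 9 tested, 5 (55.6%) had their lowest value of all 6 lines in sg*Kmt2c* line 1, against 35.9% of all genes tested. These were *Mnt*, *Mxd3*, *Mxd4*, *Mxi1* and *Mga*. The part of the network genes in the target levels was not tested. sg*Kmt2c* line 1 is also the line with the highest *Hnf4a*, *Krt8* and *Krt18*, whose part in the target levels was not tested. CACGTG was found before the start of 6 of the 22 targets with a promoter window (27.3%), against 6.86% of 27025 genes. Those genes were not matched to the targets for CpG content.

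**Figure D5:**
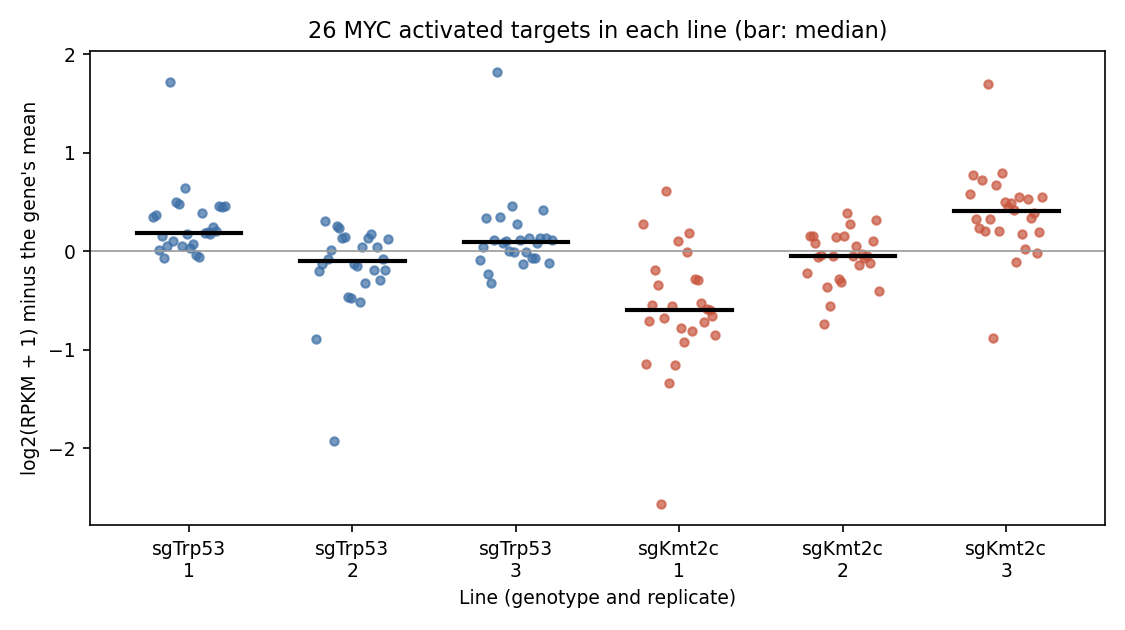
Levels of 26 MYC activated targets in each line as log2(RPKM + 1) minus the mean of the gene over the 6 lines (points, 1 gene each; black bars, medians). The median is lowest in sg*Kmt2c* line 1 (-0.59) and highest in sg*Kmt2c* line 3 (0.40), with the sg*Trp53* lines in between.

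Of 6 genes that MYC is known to repress, 5 were tested, 0 passed an adjusted p of 0.05 (limma), and 1 had an unadjusted p under 0.05 and lines that did not overlap, against 8.58% and 16.2% of all genes tested. This was *Cdkn1a*, which encodes the cell cycle inhibitor p21, at 17.3, 7.54 and 36.1 RPKM in sg*Trp53* lines 1, 2 and 3 and at 295, 217 and 261 RPKM in sg*Kmt2c* lines 1, 2 and 3 (log2 fold change 3.84, adjusted p = 0.0680, limma). *Cdkn1a* is also a direct target of p53, whose gene is the one disrupted in the sg*Trp53* lines. *Cdkn1b*, which encodes the inhibitor p27, was at 24.6 to 29.0 against 17.9 to 30.9 RPKM. *Ndrg1* (37.6 to 56.0 against 31.8 to 80.8 RPKM) and *Gadd45a*, another p53 target (4.15 to 14.7 against 6.21 to 79.1 RPKM), overlapped. The median log2 fold change was 0.05, and it ranged from -0.10 without sg*Kmt2c* line 1 to 0.37 without sg*Kmt2c* line 2.

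Of 7 targets of the MLX complexes, 0 passed (limma). An unadjusted p under 0.05 was reached by 0 and lines did not overlap for 0, against 8.58% and 16.2% of all genes tested. Counts this small are not a result about these targets. Their median log2 fold change was 0.76, and 0.17 without sg*Kmt2c* line 1. *Acaca*, the first enzyme of fatty acid synthesis, was at 203, 171 and 227 RPKM in sg*Trp53* lines 1, 2 and 3 and at 128, 1365 and 222 RPKM in sg*Kmt2c* lines 1, 2 and 3, so that 1 line set the difference. *Fasn* (105 to 136 against 76.7 to 170 RPKM) and *Elovl6* (63.4 to 73.5 against 32.3 to 99.1 RPKM), later enzymes of that pathway, overlapped. *Gpd1*, which links glycolysis to lipid synthesis, was at 113, 13.7 and 20.9 RPKM against 115, 18.5 and 104 RPKM.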

How the data were processed

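Genotypes and replicate numbers were taken from the sample labels. The authors trimmed reads with Trimmomatic, aligned them to GRCm38 with STAR, counted them with HTSeq and deposited RPKM computed with 1 transcript length per gene (tool versions for these steps are not given in the sources used here). Of 21065 rows, 209 carry no values, and 6 further sample columns were not used. The authors' table of their own DESeq2 1.8.2 comparison (mean normalized count, fold change, error, statistic, p-values) was not used. RPKM times transcript length gave whole reads for 100% of the values (tolerance 0.01 of a read). Precision is limited to 0.0726 to 0.136 RPKM per read at 2 kb, and read intervals cover counting error only.

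limma 3.58.1 in R 4.3.3 (lmFit, eBayes with trend) was run on log2(RPKM + 1) over 11617 genes with at least 1 RPKM in at least 3 of 6 libraries, in a model of genotype alone. p-values were adjusted by Benjamini and Hochberg's method over all of these genes (threshold 0.05), and the code was first tested on simulated data. p-values measure the spread among these lines, which the labels call independent triplicates. Replicates differed by a chi-square of 26.5 or more per gene, so none was treated as a copy. The members and gene lists were chosen with earlier results of these data known. Named are the members, the targeted genes, and from each list the genes without overlap and the 4 with the highest mean RPKM. *Dazl*, *Slc25a31*, the overlapping *Prelid1* and *Psmc3ip*, and the markers fall outside this rule and were named after their values were seen. Some genes of the lists are not reported here by name. Alternatives changed the pseudocount, filter, scaling, moderation, block and lines included. Sequences are from RefSeq (GRCm38.p6). Figures were drawn with matplotlib 3.10.9.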

Additional observations from a re-analysis of the deposited data

How the results depend on the processing

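Over 17 alternatives, 0 of the network genes and 0 genes of the other lists passed an adjusted p of 0.05 (limma). *Mxd1* kept its direction in all 17, with log2 fold changes of 1.34 to 2.02 and adjusted p of 0.183 to 0.922, and an unadjusted p under 0.05 in 17. *Mga* kept its direction in all 17 (-0.84 to -0.53, adjusted p 0.334 to 0.922), with an unadjusted p under 0.05 in 12. *Myc* (0.02 to 0.54) and *Mxd4* (-1.08 to -0.30) kept theirs as well.

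The count over all genes tested was 15, and it became 6 with a pseudocount of 0.1, 40 with no filter on low values, 3 with limma voom on recovered reads, 0 with sg*Kmt2c* replicates 2 and 3 as 1 sample and 0 to 8 with each line left out. At an unadjusted p under 0.05 these fits called 563 to 1555 genes. The counts reach 0 with fewer lines, so an adjusted p above 0.05 says little about a single member here.

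Fold changes turned sign in 21 of 153 values. *Max* was at 0.064 with median-of-ratios scaling, 0.012 with quantile scaling and 0.069 with limma voom, and at -0.18 to 0.12 with each line left out. *Mnt* was at -0.0021 with a pseudocount of 0.1, -0.0010 with a pseudocount of 0.5, -0.028 with TPM, -0.13 with sg*Kmt2c* replicates 2 and 3 as 1 sample, and at -0.27 to 0.29 with each line left out. *Mlx* was at 0.0058 with limma voom, 0.044 with sg*Kmt2c* replicates 2 and 3 as 1 sample and at -0.36 to 0.12 with each line left out. *Mxi1* was at 0.0034 with median-of-ratios scaling and at -0.27 to 0.12 with each line left out, and *Mxd3* at -1.09 to 0.26 with each line left out. The cause was not tested.

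The replicate numbers did not pair the lines throughout. Deviations from the genotype means correlated at 0.192, 0.399 and 0.0316 for numbers 1, 2 and 3. For sg*Trp53* lines 1 and 2 the sg*Kmt2c* line of the same number correlated best. sg*Trp53* line 3 correlated best with sg*Kmt2c* line 1 (0.152). With the replicate block the count over all genes was 0 (1085 at an unadjusted p under 0.05), and *Mxd4*, whose line 2 was highest in both genotypes, had an adjusted p of 0.483 (limma).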
